A study of Oryctolagus cuniculus with 9 samples.

Results

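The small leucine-rich proteoglycans are a family of secreted matrix proteins, and 8 of their genes were followed here: DCN (decorin), BGN (biglycan), ASPN (asporin), LUM (lumican), FMOD (fibromodulin), PRELP (prolargin), OMD (osteomodulin) and OGN (mimecan, also called osteoglycin). They were taken by gene symbol from a table of 20525 rabbit (Oryctolagus cuniculus) genes, and all 8 were among the 17344 genes expressed well enough to be tested. Polyadenylated RNA was sequenced from vocal fold tissue in 3 groups of 3 libraries. The first group was injured folds treated with SOT, an adhesive antioxidant hydrogel according to the study title, taken 1 week after injury. The second was injured folds left untreated, also taken 1 week after injury, and the third was normal folds with no injury. Rabbit strain, age and sex are not given in the labels, nor is it said that replicates are separate animals, and the tests therefore use the variation among these 9 libraries, some of which may be technical. The cell type label reads vocal cord histiocytes, a name for tissue macrophages, but all 9 libraries also held muscle and epithelial transcripts at high levels, and those of normal folds cartilage transcripts, so they were read as whole tissue.

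These proteins share a core of leucine-rich repeats that binds collagen, and they set how thick collagen fibrils grow and how they are spaced. Class I members decorin and biglycan carry chondroitin or dermatan sulfate chains, while asporin carries none and has a stretch of aspartate residues instead. Class II members lumican, fibromodulin and osteomodulin can carry keratan sulfate, prolargin has a heparin-binding end, and mimecan belongs to class III. Several of them bind TGF-beta, and free biglycan is known as a ligand of the receptors TLR2 and TLR4. In the lamina propria of the vocal fold, the layer that vibrates, decorin and fibromodulin are well-known matrix components.

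Levels are given as FPKM, fragments scaled by transcript length and library size, as deposited by the authors, so levels of different genes can be set side by side. Fold changes are on the log2 scale and come from edgeR's quasi-likelihood test on the deposited counts, with p-values adjusted by Benjamini-Hochberg over all genes tested. A member is said to have risen or fallen when its adjusted p was under 0.05. The libraries held 44755718 to 50338111 counts each, and the members had between 506 and 161029 counts in each library. Counting error was not separated from the spread between libraries. In bulk tissue, fewer cells of a type and less RNA per cell cannot be told apart.

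After injury, family members were found both above and below their normal levels. In untreated folds against normal folds, 2 members rose (ASPN and LUM), 5 fell (FMOD, PRELP, OMD, OGN and DCN) and BGN did not pass. Of all tested genes 32.8% passed in this comparison, 17.7% higher and 15.1% lower in untreated folds. In SOT-treated against normal folds, ASPN and LUM also rose, 4 fell (FMOD, PRELP, OMD and DCN), and BGN and OGN did not pass, where 16.7% of all genes passed, 9.01% higher and 7.67% lower. The median log2 fold change of the 8 was -1.14 in untreated against normal folds, beside -0.02 over all tested genes, and -0.99 in SOT-treated against normal folds, beside 0.02. The FPKM values of 7 of the 8 members did not overlap between untreated and normal libraries (55.0% of all genes), and 7 of 8 did not overlap between SOT-treated and normal libraries (38.4% of all genes). Both comparisons use the same normal libraries. The 8 members were chosen with earlier results of these data known, so these shares are description, not a test.

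**Figure D1:**
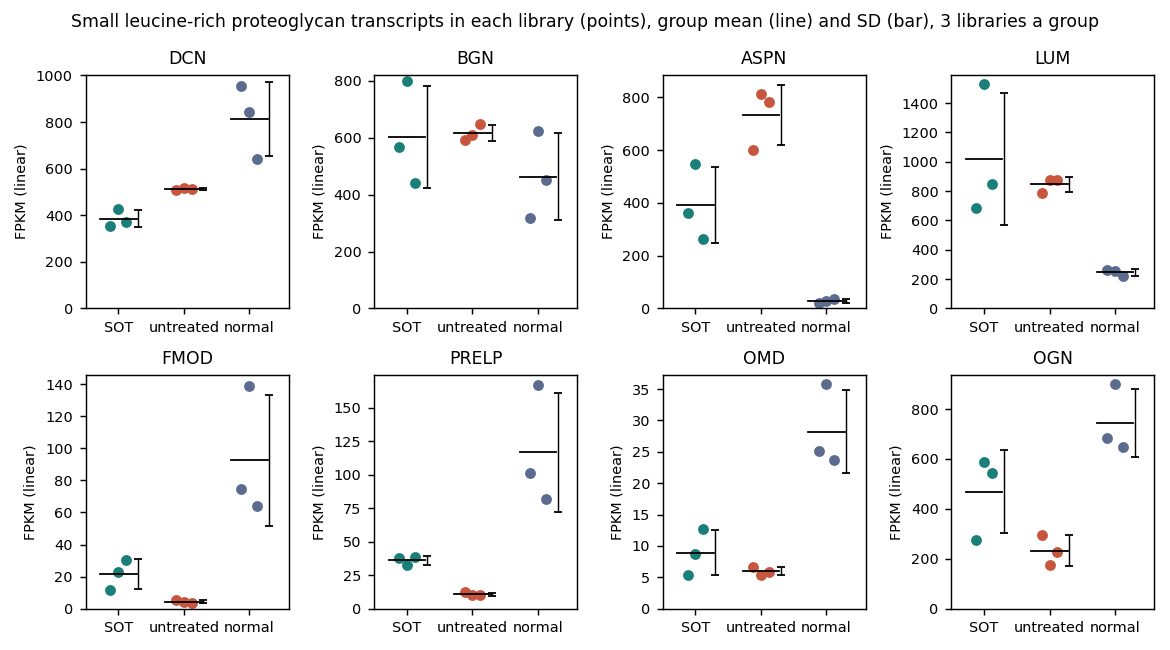
FPKM of each member (vertical axis, linear, starting at 0) in the SOT-treated, untreated and normal libraries (points), with the group mean (line) and SD (bar, n = 3). ASPN and LUM lie lowest in the 3 normal libraries, whereas DCN, FMOD, PRELP, OMD and OGN lie highest there.

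Among class I genes, ASPN moved most. ASPN had 362, 547 and 264 FPKM in SOT-treated folds, 602, 813 and 781 FPKM in untreated folds, and 20.5, 27.8 and 35.3 FPKM in normal folds. Every injured library lay far above every normal library, and all SOT-treated libraries lay below all untreated ones. The group means were 391 ± 144, 732 ± 113 and 27.9 ± 7.41 FPKM in SOT-treated, untreated and normal folds (SD, n = 3 each). ASPN was 26.9-fold higher in untreated than in normal folds (log2 fold change 4.75, SE 0.34, adjusted p = 0.000219) and 13.1-fold higher in SOT-treated than in normal folds (3.71, SE 0.32, adjusted p = 0.00249). Asporin is known from cartilage and periodontal ligament work in other mammals as an inhibitor of TGF-beta signalling.

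DCN, the gene of decorin, which wraps around collagen fibrils and binds TGF-beta, was lowest in the treated folds. It had 355, 426 and 373 FPKM in SOT-treated folds, 510, 516 and 513 FPKM in untreated folds, and 954, 845 and 640 FPKM in normal folds. The 3 groups did not overlap, with SOT-treated libraries lowest and normal libraries highest. DCN fell by 1.19 on the log2 scale in SOT-treated against normal folds (SE 0.18, adjusted p = 0.00659). In untreated against normal folds it fell by 0.63 (SE 0.17, adjusted p = 0.0248). The call in untreated folds did not hold without untreated replicate 1 (adjusted p = 0.0621), 2 (0.0726) or 3 (0.089) or without normal replicate 1 (0.0765) or 2 (0.0642).

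BGN, whose product shares decorin's fold and carries more sugar chains, did not pass in either injured group. It had 567, 798 and 442 FPKM in SOT-treated folds, 594, 610 and 648 FPKM in untreated folds, and 317, 623 and 450 FPKM in normal folds. All 3 groups overlapped. The log2 fold change was 0.45 in untreated against normal folds (95% interval -0.19 to 1.09, adjusted p = 0.249) and 0.27 in SOT-treated against normal folds (-0.37 to 0.91, adjusted p = 0.537).

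Class II genes split. LUM, the gene of lumican, which limits fibril thickness and is abundant in cornea and skin, had 683, 1529 and 845 FPKM in SOT-treated folds, 789, 875 and 879 FPKM in untreated folds, and 264, 256 and 221 FPKM in normal folds. Both injured groups lay above normal folds without overlap, and SOT replicate 2 stood highest of all 9 libraries. LUM was 3.51-fold higher in untreated than in normal folds (log2 fold change 1.81, SE 0.28, adjusted p = 0.00264) and 3.81-fold higher in SOT-treated than in normal folds (1.93, SE 0.28, adjusted p = 0.00637).

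FMOD, PRELP and OMD fell. FMOD, the gene of fibromodulin, which binds the same region of collagen as lumican and guides early fibril assembly, had 11.6, 23.1 and 30.6 FPKM in SOT-treated folds, 5.52, 4.05 and 3.49 FPKM in untreated folds, and 74.6, 139 and 63.8 FPKM in normal folds. The 3 groups did not overlap, with untreated libraries lowest. FMOD was 20.7-fold lower in untreated than in normal folds (log2 fold change -4.37, SE 0.44, adjusted p = 0.000652) and 4.63-fold lower in SOT-treated than in normal folds (-2.21, SE 0.40, adjusted p = 0.0112). The highest FMOD value of each group was in SOT replicate 3, untreated replicate 1 and normal replicate 2. These were the libraries with the highest summed cartilage markers of their group, 161, 36.3 and 1120 FPKM. PRELP and OMD were also highest in these libraries, though PRELP differed little among SOT-treated libraries (37.6, 32.4 and 38.7 FPKM). The other members were highest in SOT replicate 2 among SOT-treated libraries. In the other groups the members were not set apart in this way. OGN was also highest in untreated replicate 1 and normal replicate 2, and BGN in normal replicate 2. The part of cartilage in the results for FMOD, PRELP and OMD was not tested.

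PRELP encodes prolargin, which anchors basement membranes to the underlying collagen. It had 37.6, 32.4 and 38.7 FPKM in SOT-treated folds, 12.3, 10.2 and 10.1 FPKM in untreated folds, and 101, 167 and 82.2 FPKM in normal folds. As with FMOD, the order was untreated, SOT-treated, normal from low to high with no overlap. PRELP was 10.5-fold lower in untreated than in normal folds (log2 fold change -3.39, SE 0.27, adjusted p = 0.000282) and 3.47-fold lower in SOT-treated than in normal folds (-1.79, SE 0.25, adjusted p = 0.006).

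OMD, the gene of osteomodulin, a keratan sulfate proteoglycan known from bone and tooth, was the least abundant member in the SOT-treated group. It had 5.43, 8.71 and 12.7 FPKM in SOT-treated folds, 6.65, 5.32 and 5.92 FPKM in untreated folds, and 25.1, 35.7 and 23.6 FPKM in normal folds. Both injured groups lay below normal folds, and they overlapped each other. OMD fell by 2.21 on the log2 scale in untreated against normal folds (SE 0.29, adjusted p = 0.00144) and by 1.78 in SOT-treated against normal folds (SE 0.28, adjusted p = 0.00798).

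OGN, the class III gene, whose product mimecan also binds collagen and regulates fibril formation, had 277, 586 and 544 FPKM in SOT-treated folds, 297, 175 and 227 FPKM in untreated folds, and 685, 901 and 648 FPKM in normal folds. Normal libraries lay above both injured groups, while SOT replicate 1 fell inside the range of the untreated libraries. OGN was 3.12-fold lower in untreated than in normal folds (log2 fold change -1.64, SE 0.30, adjusted p = 0.00544). In SOT-treated against normal folds its log2 fold change was -0.79 (95% interval -1.47 to -0.10), which did not pass (adjusted p = 0.105, and 0.0454 by DESeq2, by which 27.8% of all genes passed). The calls for ASPN, LUM, FMOD, PRELP and OMD against normal folds, in both injured groups, and for OGN in untreated folds held in each of the 21 other fits at the 0.05 threshold.

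**Figure D2:**
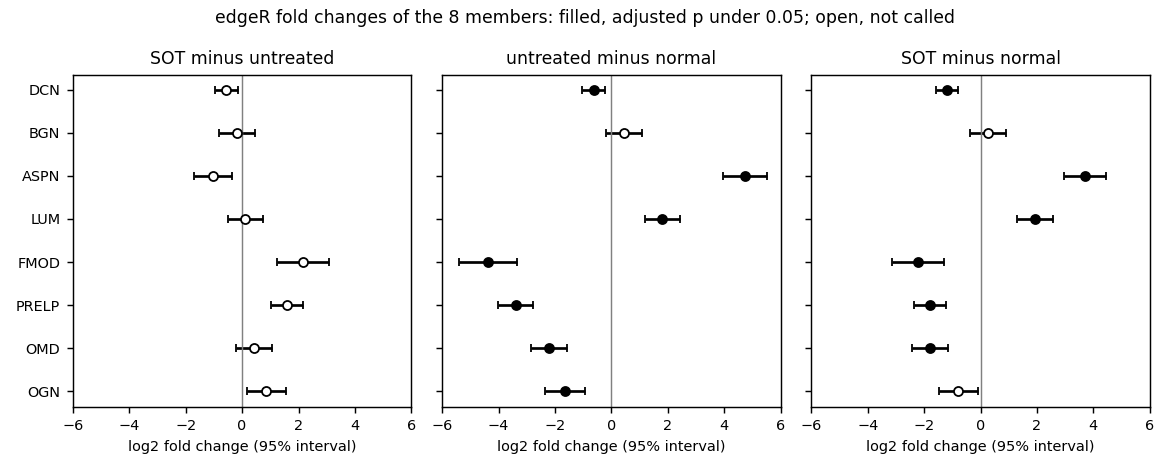
Log2 fold change of each member (horizontal axis) with its 95% interval in the 3 comparisons, from edgeR. Filled points passed at an adjusted p under 0.05, which 0 members did in SOT-treated against untreated folds, 7 in untreated against normal folds and 6 in SOT-treated against normal folds.

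SOT-treated folds were set against untreated folds to ask whether the hydrogel changed these transcripts. No member passed by edgeR, where 2 of 17344 genes passed (0.0115%). At an unadjusted p under 0.05 there were 5 members, beside 12.6% of all genes, and by DESeq2 there were 4, beside 3.94% of all genes. By limma-voom there were 0, beside 0.19% of all genes, and by limma on log2(FPKM + 1) there was 1, beside 0.164%. The FPKM values of 4 of 8 members did not overlap between SOT-treated and untreated libraries, beside 23.3% of all genes. FMOD and PRELP were higher in all 3 SOT-treated libraries, and ASPN and DCN were lower in all 3.

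The fitted difference between SOT-treated and untreated folds was largest for FMOD, at 2.16 on the log2 scale (95% interval 1.24 to 3.08, adjusted p = 0.127, and 4.33e-05 by DESeq2). PRELP had a difference of 1.60 (1.02 to 2.17, adjusted p = 0.0829, and 3.2e-06 by DESeq2). Without SOT replicate 1 both passed by edgeR, FMOD with 2.48 (adjusted p = 0.0223) and PRELP with 1.57 (adjusted p = 0.042), in a fit where 2.24% of all genes passed. ASPN had a difference of -1.04 (-1.72 to -0.37, adjusted p = 0.23, and 0.031 by DESeq2), and DCN one of -0.56 (-0.95 to -0.16, adjusted p = 0.267, and 0.0487 by DESeq2). OGN had 0.86 (0.17 to 1.54, adjusted p = 0.302) and OMD 0.43 (-0.20 to 1.06, adjusted p = 0.558). LUM had 0.12 (-0.50 to 0.73, adjusted p = 0.885), which turned to -0.27 without SOT replicate 2, the library with 1529 FPKM. BGN had -0.17 (-0.81 to 0.47, adjusted p = 0.835), which turned to 0.06 without SOT replicate 3.

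The members' shares of the family's summed level were also compared. The summed FPKM of the 8 members was 2299, 3950 and 2550 in SOT-treated folds, 2817, 3008 and 3068 in untreated folds, and 2443, 2994 and 2164 in normal folds, so the groups overlapped. In normal folds DCN and OGN together made up most of the sum, with 32.3 ± 5.91% and 29.4 ± 1.13% (SD, n = 3), and BGN made up 18.2 ± 4.52%. LUM held 33.9 ± 4.54% of the sum in SOT-treated folds, 28.6 ± 0.536% in untreated folds and 9.85 ± 1.18% in normal folds. ASPN held 13.3 ± 2.73% in SOT-treated folds, 24.6 ± 2.91% in untreated folds and 1.13 ± 0.435% in normal folds. The share of BGN overlapped between groups, at 20.7 ± 3.68% in SOT-treated, 20.8 ± 0.469% in untreated and 18.2 ± 4.52% in normal folds.

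The order of levels also differed. In all 3 untreated libraries it was LUM, ASPN, BGN, DCN, OGN, PRELP, OMD and FMOD from high to low. In the SOT-treated libraries LUM was also first, and the last 3 were PRELP, FMOD and OMD, while the order of BGN, OGN, ASPN and DCN differed between the 3 libraries. In normal libraries DCN or OGN was first, with overlapping ranges, followed by BGN, LUM, PRELP and FMOD, and ASPN and OMD were last. FMOD and PRELP held 0.762 ± 0.381% and 1.32 ± 0.441% of the sum in SOT-treated folds, 0.148 ± 0.0426% and 0.368 ± 0.0591% in untreated folds, and 3.55 ± 0.949% and 4.51 ± 0.936% in normal folds.

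**Figure D3:**
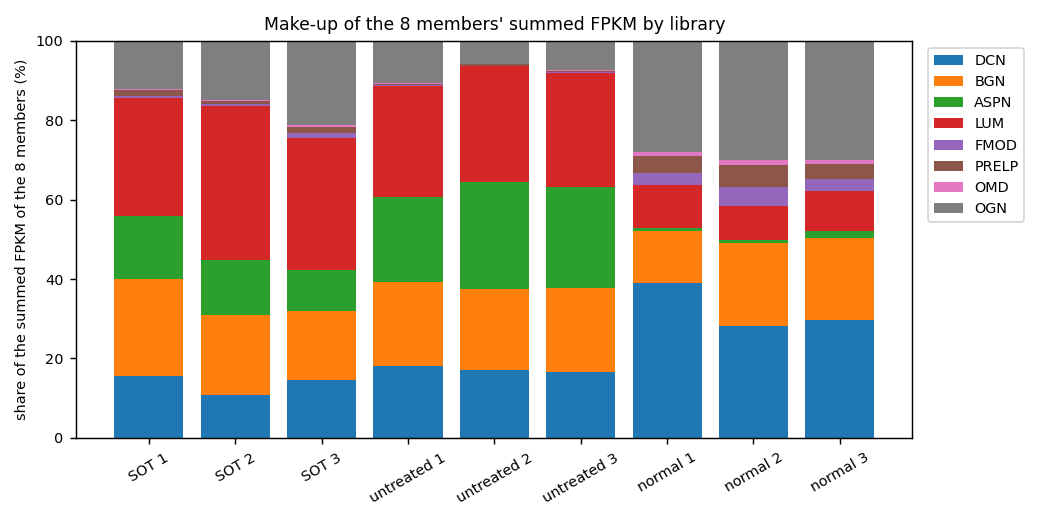
Share of each member in the summed FPKM of the 8 (vertical axis, percent) in each of the 9 libraries. LUM and ASPN take up more of the bar in injured libraries, and DCN and OGN more of it in normal libraries.

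Ratios between members within a library do not depend on library scaling. With 3 libraries against 3, an exact permutation test cannot go below p = 0.1. Over the 5 ratios in 3 comparisons, the smallest adjusted p obtained was 0.125. The ratio of LUM to FMOD, whose products share a collagen site, was 59, 66.3 and 27.6 in SOT-treated folds, 143, 216 and 252 in untreated folds, and 3.54, 1.84 and 3.46 in normal folds. The 3 groups did not overlap, and each of the 3 comparisons had an exact two-sided p of 0.1 (adjusted 0.125). The ratio of ASPN to DCN was 1.00 ± 0.287 in SOT-treated folds, 1.43 ± 0.214 in untreated folds and 0.0365 ± 0.0172 in normal folds. Both injured groups lay above normal folds (exact p = 0.1 each, adjusted 0.125) and overlapped each other (exact p = 0.2, adjusted 0.2).

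The ratio of LUM to DCN was 1.92, 3.59 and 2.27 in SOT-treated folds, 1.55, 1.69 and 1.71 in untreated folds, and 0.277, 0.302 and 0.345 in normal folds, with no overlap in any pair (exact p = 0.1 each, adjusted 0.125). BGN to DCN was 1.55 ± 0.344 in SOT-treated, 1.2 ± 0.0525 in untreated and 0.591 ± 0.225 in normal folds, with every normal library below the injured ones (exact p = 0.1, adjusted 0.125). In every normal library there was less BGN than DCN, and in every injured library more. OGN to OMD was 53.8 ± 12.4 in SOT-treated, 38.7 ± 5.94 in untreated and 26.6 ± 1.24 in normal folds, and the ratio was higher in every injured than in every normal library (exact p = 0.1, adjusted 0.125).

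**Figure D4:**
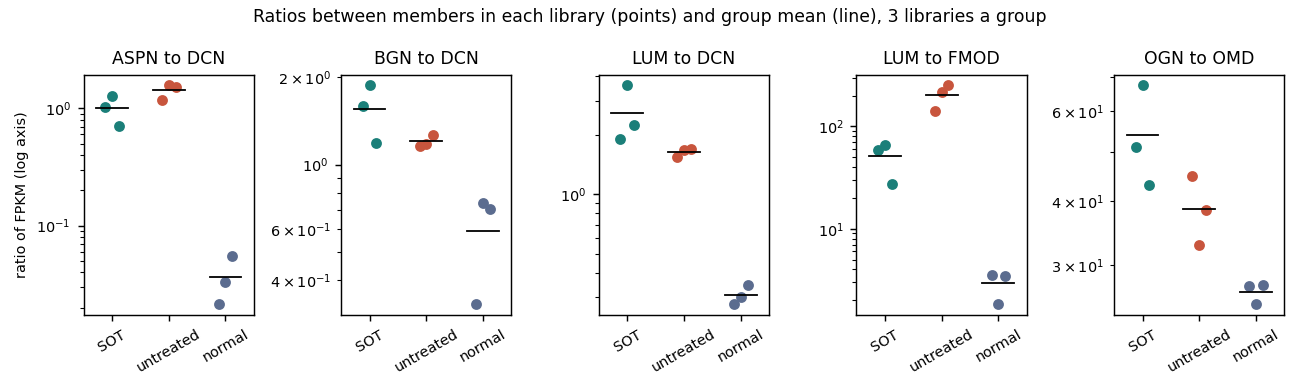
Ratio of the FPKM of 2 members in each library (points, log axis) and the group mean (line). For all 5 ratios the 3 normal libraries lie below every injured library, and for LUM to FMOD the SOT-treated libraries lie between normal and untreated ones.

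The members sit in 3 gene clusters and 1 lone locus of the build OryCun2.0. On the minus strand of chromosome 1 lie OGN at 70251553 to 70270135, OMD at 70281224 to 70291839 and ASPN at 70308159 to 70332292, with gaps of 11.1 and 16.3 kb, and the related gene ECM2 follows 14.4 kb further. Within this stretch OGN and OMD fell and ASPN rose in untreated against normal folds. ECM2 had 40.2 ± 7.42 FPKM in SOT-treated folds, 50.4 ± 1.96 in untreated folds and 37 ± 8.41 in normal folds and did not pass in untreated against normal folds (log2 fold change 0.48, SE 0.17, adjusted p = 0.0642). CENPP, a centromere protein gene, spans all of them on the plus strand with at most 89 counts in a library, against at least 826 for any of the 3 members. Whether the counting used strand is not given in the sources used here.

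On chromosome 4, LUM at 70315437 to 70323221 and DCN at 70357836 to 70397995 are direct neighbours 34.6 kb apart on the minus strand, and LUM rose while DCN fell in both injured groups. KERA, the gene of keratocan of the cornea, and EPYC, the gene of epiphycan of cartilage, follow on the far side of LUM. KERA fell by 2.18 on the log2 scale in untreated against normal folds (SE 0.28, adjusted p = 0.00139) and by 0.99 in SOT-treated against normal folds (SE 0.27, adjusted p = 0.0394). On chromosome 16, PRELP at 68341649 to 68353884 on the minus strand and FMOD at 68440312 to 68449022 on the plus strand lie 86.4 kb apart with no annotated gene between them, and both had the same sign in each comparison. BGN lies alone on an unplaced scaffold at 868472 to 879270, where a plus-strand locus with at most 93 counts overlaps its end. The gene models of ASPN and OMD are annotated as low quality.

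**Figure D5:**
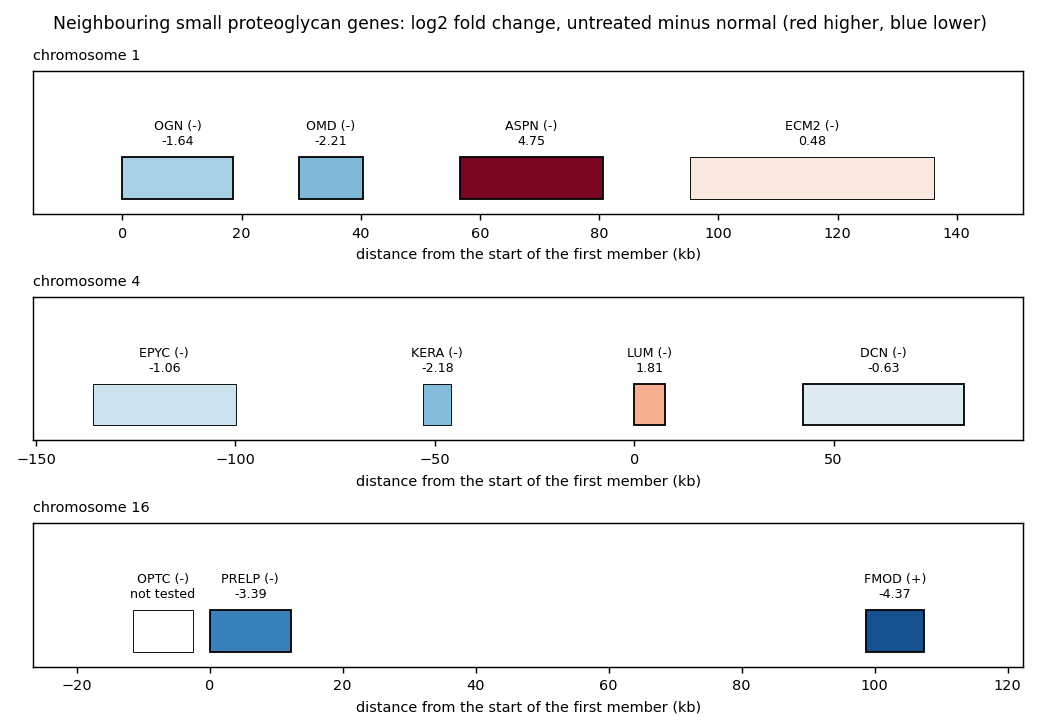
Maps of the 3 clusters to scale (horizontal axis, kb from the start of the first member), with each gene's strand and its log2 fold change in untreated minus normal folds. Red genes were higher and blue genes lower, so ASPN is opposite to its neighbours OGN and OMD, and LUM is opposite to DCN.

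Of 8 further family genes in the table, 7 were tested. In untreated against normal folds 1 rose and 2 fell (median log2 fold change -1.06, beside -0.02 over all genes), and in SOT-treated against normal folds 0 rose and 2 fell (median -0.32, beside 0.02). CHAD, the gene of chondroadherin, a cartilage protein that binds collagen, had 3.45 ± 0.595 FPKM in SOT-treated folds, 2.15 ± 1.02 in untreated folds and 40.2 ± 13.3 in normal folds (SD, n = 3 each). It fell by 4.18 on the log2 scale in untreated against normal folds (SE 0.40, adjusted p = 0.000527) and by 3.65 in SOT-treated against normal folds (SE 0.39, adjusted p = 0.00282). TSKU, the gene of tsukushi, had a log2 fold change of 0.87 in untreated against normal folds (SE 0.28, adjusted p = 0.0431). The higher count was 0 without SOT replicate 1, any of the untreated replicates 1, 2 and 3, or normal replicate 1 or 3, and 2 without normal replicate 2. The lower count in SOT-treated against normal folds was 1 without SOT replicate 2 or 3, untreated replicate 1, 2 or 3, or normal replicate 1 or 2, and the higher count there was 1 without SOT replicate 3.

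The enzymes that build the sugar chains were taken next. All companion lists were chosen with earlier results of these data known, so their shares below are description, not a test. Over all genes, the shares to read the following counts against are 17.7% higher and 15.1% lower in untreated against normal folds and 9.01% higher and 7.67% lower in SOT-treated against normal folds, with medians of -0.02 and 0.02. Of 21 tested genes of chondroitin and dermatan sulfate synthesis, 7 rose and 2 fell in untreated against normal folds (median 0.32), and 3 rose and 3 fell in SOT-treated against normal folds (median 0.22). These are 33.3% higher and 9.52% lower in untreated folds, the lower share being under that of all genes, and 14.3% in each direction in SOT-treated folds. CHSY3, a chain-extending synthase, averaged 3.67 ± 1.58 FPKM in SOT-treated folds, 4.58 ± 0.292 in untreated folds and 1.17 ± 0.257 in normal folds, a log2 fold change of 2.00 in untreated against normal folds (SE 0.31, adjusted p = 0.00268). CSGALNACT2, which starts chondroitin chains, rose by 1.44 (SE 0.31, adjusted p = 0.00998), and CHST13, a 4-O-sulfotransferase, by 4.17 (SE 1.34, adjusted p = 0.044). CHST13 was low, with 2.17 ± 0.852 FPKM in untreated and 0.117 ± 0.00916 in normal folds. XYLT1, the xylosyltransferase that attaches the first sugar to the core protein, fell by 0.56 in untreated folds (SE 0.16, adjusted p = 0.0321) and by 1.19 in SOT-treated folds (SE 0.17, adjusted p = 0.00579), each against normal folds. CSGALNACT1 fell by 0.69 in untreated against normal folds (SE 0.20, adjusted p = 0.03). The lower count in untreated folds was 0 without untreated replicate 1 or 3 or normal replicate 2, and 1 without untreated replicate 2 or normal replicate 1. For SOT-treated against normal folds the higher count was 5 without SOT replicate 3, 1 with normal replicate 2 or 3 left out and 0 with normal replicate 1 left out, and the lower count was 1 without SOT replicate 2 or normal replicate 1.

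Of 10 tested genes of keratan sulfate synthesis, the chain that lumican and fibromodulin can carry, 4 rose and 2 fell in untreated against normal folds (median 0.29), and 3 rose and 2 fell in SOT-treated against normal folds (median -0.21), few genes to set against the shares of all genes. B3GNT7, which extends the chain, had 9.66 ± 3.68 FPKM in SOT-treated folds, 7.1 ± 1.06 in untreated folds and 2.53 ± 0.591 in normal folds. Its log2 fold change was 1.52 in untreated against normal folds (SE 0.30, adjusted p = 0.00674) and 1.81 in SOT-treated against normal folds (SE 0.30, adjusted p = 0.00894). CHST1, the sulfotransferase for its galactose, fell by 1.22 in untreated against normal folds (SE 0.41, adjusted p = 0.0498), and ST3GAL3, a sialyltransferase, by 1.3 (SE 0.24, adjusted p = 0.00499). In untreated against normal folds the higher count was 2 without untreated replicate 2 or 3 or normal replicate 1 or 2, and the lower count was 1 in each fit that left out a library other than normal replicate 3. The higher count in SOT-treated against normal folds was 1 without normal replicate 1 or 2, and the lower count was 1 without SOT replicate 1 or 3 or untreated replicate 1, 2 or 3, and 0 without SOT replicate 2 or normal replicate 1 or 2.

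Most fibril collagens and regulators of fibrils were higher in untreated than in normal folds. Of 16 tested fibril collagens and their regulators, 12 rose and 2 fell in untreated against normal folds (median 1.78), and 8 rose and 1 fell in SOT-treated against normal folds (median 1.06). The higher genes made up 75.0% of the list in untreated folds, against 17.7% of all genes. In SOT-treated folds they made up 50.0%, against 9.01%. The list was chosen with earlier results of these data known, so these shares do not test it. COL6A2 and COL11A1 did not pass in untreated folds, and COL3A1, COL5A1 and the 3 collagen VI genes were among the 7 that did not pass in SOT-treated folds. COL5A3, a minor chain that nucleates fibrils, had 51.7 ± 30.7 FPKM in SOT-treated folds, 128 ± 28.8 in untreated folds and 4.23 ± 0.91 in normal folds, and rose by 4.96 in untreated against normal folds (SE 0.51, adjusted p = 0.000669). THBS2 rose by 3.51 (SE 0.44, adjusted p = 0.00129). TNXB, the gene of tenascin-X, a fibril-linking protein, fell by 3.34 (SE 0.57, adjusted p = 0.00387), and COL14A1, a collagen on fibril surfaces, by 0.65 (SE 0.20, adjusted p = 0.0357). The lower count in untreated folds was 1 without untreated replicate 1, 2 or 3 or normal replicate 1 or 2. In SOT-treated against normal folds the higher count was 5 without SOT replicate 2 or untreated replicate 2, 4 without untreated replicate 3 or normal replicate 2 or 3, and 3 without normal replicate 1, and the lower count was 2 without SOT replicate 3 and 0 without normal replicate 1 or 2.

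The summed FPKM of the 8 members over that of COL1A1, COL1A2 and COL3A1, the main fibril collagens, was chosen after its values were seen. It was 0.804, 0.618 and 0.769 in SOT-treated folds, 0.433, 0.446 and 0.449 in untreated folds, and 1.92, 1.66 and 1.14 in normal folds. The 3 groups did not overlap, with normal folds highest and untreated folds lowest. The exact two-sided p was 0.1 in each of the 3 comparisons, the smallest possible, but cannot serve as a test of a ratio so chosen. The members' sum itself overlapped between groups. Mean COL1A1, COL1A2 and COL3A1 were 1180, 1530 and 1480 FPKM in SOT-treated folds. They were 2060, 2340 and 2290 FPKM in untreated folds and 358, 570 and 728 FPKM in normal folds.

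Enzymes that process or cut these proteoglycans were also counted. Of 13 tested proteases and helpers, 9 rose and 1 fell in untreated against normal folds (median 1.91), and 5 rose and 1 fell in SOT-treated against normal folds (median 1.08), so the higher genes made up 69.2% of the list in untreated folds and 38.5% in SOT-treated folds. TLL1, TLL2 and ADAMTS1 did not pass in untreated folds, and MMP2, MMP3 and ADAMTS5 were among the 7 that did not pass in SOT-treated folds. MMP13, a collagenase that also cuts fibromodulin, had 58.1 ± 53.1 FPKM in SOT-treated folds, 116 ± 31.3 in untreated folds and 1.74 ± 1.27 in normal folds, and rose by 6.09 in untreated against normal folds (SE 1.18, adjusted p = 0.00638). MMP3 rose by 5.23 (SE 1.03, adjusted p = 0.00691) and ADAMTS4, an aggrecanase, by 3.37 (SE 0.55, adjusted p = 0.00343). PCOLCE2, an enhancer of procollagen processing, fell by 3.97 (SE 0.41, adjusted p = 0.000697). The lower count in untreated folds was 2 without untreated replicate 1, and the higher count in SOT-treated against normal folds was 10 without SOT replicate 3, 3 with normal replicate 2 left out and 2 with normal replicate 1 left out.

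Of 19 tested receptors and growth factors that small proteoglycans bind, 11 rose and 2 fell in untreated against normal folds (median 0.84), and 9 rose and 0 fell in SOT-treated against normal folds (median 0.60), and the higher genes made up 57.9% of the list in untreated folds and 47.4% in SOT-treated folds. TLR4, a receptor for free biglycan, had 16.6 ± 9.95 FPKM in SOT-treated folds, 35.5 ± 7.78 in untreated folds and 4.19 ± 0.881 in normal folds, and rose by 3.11 in untreated against normal folds (SE 0.45, adjusted p = 0.00219). Its coreceptor CD14 rose by 3.83 (SE 0.36, adjusted p = 0.000503) and WISP1, a secreted protein that binds decorin and biglycan, by 3.66 (SE 0.47, adjusted p = 0.00138). The summed macrophage markers, among them CD14, were 355 to 559 FPKM in SOT-treated folds, 856 to 1040 in untreated folds and 109 to 141 in normal folds, and their part in these changes was not tested. ERBB4, a receptor tyrosine kinase, was low, with 0.12 ± 0.0987 FPKM in untreated and 0.778 ± 0.161 in normal folds. It fell by 2.67 (SE 0.82, adjusted p = 0.0376), and TGFB2 fell by 0.65 (SE 0.22, adjusted p = 0.0482). The counts of this list moved when a library was left out. The lower count in untreated folds was 4 without SOT replicate 2 or untreated replicate 1, 1 without SOT replicate 3 or normal replicate 3, and 0 without untreated replicate 2 or 3 or normal replicate 1 or 2. Between SOT-treated and normal folds it was 1 without SOT replicate 1 and 2 without untreated replicate 1 or 2.

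Of 5 tested large proteoglycans and link proteins, 2 rose and 2 fell in both injured groups against normal folds, too few to set against the shares of all genes. VCAN, the gene of versican, had 69.6 ± 27 FPKM in SOT-treated folds, 92.8 ± 7.87 in untreated folds and 17.3 ± 4.06 in normal folds, and rose by 2.46 in untreated against normal folds (SE 0.31, adjusted p = 0.00129). ACAN, the gene of the cartilage proteoglycan aggrecan, had 7.65 ± 6.58 FPKM in SOT-treated folds, 1.72 ± 0.83 in untreated folds and 62 ± 25.4 in normal folds, and fell by 5.13 (SE 0.72, adjusted p = 0.00192). In SOT-treated against normal folds the higher count was 1 without SOT replicate 2 or normal replicate 1 or 3, and the lower count was 1 without normal replicate 2. In SOT-treated against untreated folds no gene of these 7 lists passed by edgeR, beside 0.0115% of all genes. Without SOT replicate 1, where 2.24% of all genes passed, there were 2 lower genes of chondroitin and dermatan sulfate synthesis, 1 lower protease and 2 lower receptors or growth factors. In the same fit 7 of 10 macrophage markers and 3 of 6 neutrophil markers were lower in SOT-treated than in untreated folds. With all 9 libraries, 0 markers of either list passed in this comparison, and also 0 with any other library left out.

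Markers of other cells differed between the same groups. All 11 cartilage markers in the table were tested, and 10 fell in untreated against normal folds. Their summed FPKM was 37.8 to 161 in SOT-treated folds, 21.6 to 36.3 in untreated folds and 537 to 1120 in normal folds, and UCMA was at 0 in all 3 untreated libraries. In SOT-treated against normal folds 10 fell, and this count was 6 without SOT replicate 1 or 2 and as low as 4 and 2 with normal replicate 1 and 2 left out in turn. Of 11 fibroblast markers, 1 rose (POSTN) and 5 fell (MFAP5, PI16, THY1, DPT and CD34) in untreated against normal folds. Their sum was 1600 to 1940 FPKM in SOT-treated folds, 1630 to 2090 in untreated folds and 1770 to 2480 in normal folds, so it overlapped. VIM was the largest part of this sum, at 890 to 935 FPKM in SOT-treated, 1010 to 1160 in untreated and 933 to 1480 in normal folds. The overlap of the sum therefore says little about the other markers. The lower count was 3 without untreated replicate 1 or normal replicate 3 and 2 without untreated replicate 2 or 3 or normal replicate 1 or 2, and the higher count was 2 without SOT replicate 3 or normal replicate 2. MFAP5, a matrix protein gene of adventitial fibroblasts, fell by 3.19 on the log2 scale (SE 0.40, adjusted p = 0.00132).

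Of 4 tested tendon and ligament markers 2 fell in untreated against normal folds, 1 without untreated replicate 1 or 3 or normal replicate 2 or 3. Their sum was 25.6 to 38.1 FPKM in SOT-treated folds, 18.1 to 21.5 in untreated folds and 40.8 to 56.3 in normal folds. The summed muscle markers were 662 to 2990 FPKM in SOT-treated folds, 257 to 2060 in untreated folds and 6280 to 7790 in normal folds. Of 7 muscle markers 5 fell in untreated against normal folds (71.4%, against 15.1% of all genes). In SOT-treated against normal folds 2 fell (28.6%, against 7.67%). With a library left out, each of these counts was as low as 1. MYL2 and DES passed in neither comparison. The summed nerve markers were 39.5 to 78.1 FPKM in SOT-treated folds, 29.6 to 42.1 in untreated folds and 270 to 589 in normal folds. Most of the nerve sum in normal folds was S100B, at 192, 478 and 159 FPKM in replicates 1, 2 and 3. Of 7 nerve markers 4 fell in untreated against normal folds (57.1%, against 15.1% of all genes) and 3 did not pass, MBP among them (log2 fold change 0.03, adjusted p = 0.93). The summed neutrophil markers were 1510 to 4310 FPKM in SOT-treated folds, 4320 to 6370 in untreated folds and 247 to 922 in normal folds, and the summed endothelial markers were 96.6 to 257 FPKM in SOT-treated folds, 217 to 244 in untreated folds and 65.4 to 99.5 in normal folds. Summed epithelial markers overlapped, with 3740 to 7330 FPKM in SOT-treated folds, 3610 to 5290 in untreated folds and 5040 to 13700 in normal folds. KRT13 and KRT4 were most of this sum, which says little about the other markers. In untreated against normal folds KRT5 rose by 1.76 (SE 0.38, adjusted p = 0.0101), and 4 of 7 markers did not pass. SPRR3 fell by 5.06 (SE 0.62, adjusted p = 0.00118) and KRT15 by 2.36 (SE 0.61, adjusted p = 0.0197). Summed lymphocyte markers were 7.84 to 41.7 FPKM in SOT-treated folds, 5.59 to 7.42 in untreated folds and 7.72 to 10.9 in normal folds. The untreated libraries lay below both other groups, but 0 of 5 markers passed in any comparison. The 41.7 FPKM was in SOT replicate 3 alone. The part of any of these lists in the changes of the 8 members was not tested.

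The genes most like each member over the 9 libraries were found among 14110 genes with a symbol, by Pearson correlation of log2 CPM, counts scaled by library size. The groups share these libraries and differ in level, so the correlations describe the group pattern in large part. ASPN was most like the basement membrane collagens COL4A2 (r = 0.996) and COL4A1 (0.995) and the membrane protease MMP14 (0.996). LUM was most like RBM15B (0.992), EML4 (0.989) and C1H11orf16 (0.987). FMOD was most like FGFR2 (0.994), CYP39A1 (0.988) and BMP5 (0.987), and PRELP was most like CYP39A1 (0.989), GUF1 (0.988) and NUDT6 (0.987), so CYP39A1 stood in both sets. BGN was most like TIMP2 (0.982), TMEM179B (0.959) and BICC1 (0.946), and DCN like GNAS (0.966), KLHDC3 (0.966) and PEBP1 (0.965). OGN was most like CCDC66 (0.99), HOOK2 (0.989) and ZFHX4 (0.983), and OMD like INSIG2 (0.995), IFT88 (0.991) and SECISBP2L (0.991).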

How the data were processed

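The authors deposited a table of counts and FPKM per gene for 9 libraries. Per the submitters' processing notes, cutadapt 1.9, HISAT2 2.0.4, StringTie 1.3.4d and edgeR were used, with the build OryCun2.0, and no source used here gives how the counts were made from the reads. Counts as deposited were whole numbers and were tested as such, with edgeR 4.0.16 in R 4.3.3 (TMM scaling, edgeR's default expression filter, quasi-likelihood test, 1 mean per group over all 9 libraries, Benjamini-Hochberg over 17344 genes). The deposited FPKM values gave levels, shares and ratios, which were compared by exact permutation. Alternatives used DESeq2 1.42.0, limma 3.58.1, other scalings, filters and thresholds, the replicate number as a block, and each library left out in turn. The fits were tested on simulated counts. The text names all members, up to 3 genes with the largest called change per direction in each list (some of these are left out for length), and the 3 genes most like each member. The 8 members and the 17 companion lists were chosen with earlier results of these data known.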

Additional observations from a re-analysis of the deposited data

How the results depend on the processing

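The calls for LUM, FMOD, ASPN, PRELP and OMD against normal folds held under every alternative at the 0.05 threshold, and FMOD in SOT-treated folds (adjusted p = 0.0112) did not hold at 0.01. In SOT-treated against untreated folds, 0 members were called, but 4 by DESeq2 (2 higher and 2 lower), 1 by limma on log2(FPKM + 1) (1 higher), and 0 to 2 when a library was left out, with 2 (both higher) without SOT replicate 1. The cause was not tested. The log2 fold change of LUM in SOT-treated against untreated folds was 0.12, ranged from -0.27 to 0.35 with a library left out and was -0.27 without SOT replicate 2. That of BGN was -0.17, ranged from -0.39 to 0.06 and was 0.06 without SOT replicate 3. Neither passed in any fit. With each gene's group mean subtracted from its log2 CPM, same-numbered libraries of different groups correlated with r between -0.048 and 0.267 over 9 pairs. Of these pairs 2 were over 0.1. Differently numbered libraries correlated with r between -0.276 and 0.174, some of them also over 0.1. These values do not settle whether the numbers mark pairs, and the main fit did not use them as such. With the replicate number as a block, the adjusted p of DCN in untreated against normal folds was 0.0334 and the block changed no member's call. Over all genes, the 2 calls in SOT-treated against untreated folds became 682 by DESeq2, 33 by limma-voom, 28 by limma on log2(FPKM + 1), 397 without SOT replicate 1 and 0 with the block. The 2894 calls in SOT-treated against normal folds became 4809 by DESeq2, 1578 in a fit of only those 6 libraries, 1680 without SOT replicate 2, 1783 without untreated replicate 3, 1135 without normal replicate 1 and 1442 without normal replicate 2. The 5692 calls in untreated against normal folds became 3418 without untreated replicate 2 and 3145 without untreated replicate 3. With 3 libraries a group, an exact test cannot go below 0.1.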
